A study of Drosophila melanogaster with 5 samples.

Results

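The nuclear genes of oxidative phosphorylation were followed in Drosophila melanogaster as all genes whose current symbol begins with ND-, UQCR, COX4, COX5, COX6, COX7, COX8 or ATPsyn. The rule found 80 genes, of which 78 were listed among the 13265 genes of the series. Of the 80, 21 are testis-type paralogs, recognised by a symbol ending in L, L1 or L2, and 19 of these were listed, since COX7CL and UQCR-6.4L were not. The other 59, called core genes here, were all listed: 34 of complex I, 6 of complex III, 8 of complex IV and 11 of complex V. ND-MNLL was kept with the core genes because its last letters are a peptide code.

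The study examined transcription that starts in transposable elements, and it comprises 5 libraries, each a group of its own with no replicate. A pair came from ovaries of the line iso1a (20 ovaries): an Iso1a-454 library, labelled as normalized, and a Solexa library, labelled as not normalized, both strand-specific and made by CAGE, which captures the capped 5′ ends of RNAs. The other 3, counted without strand and primed at random on an Illumina HiSeq, came from whole bodies of 10 adult males (under 24 h) and 10 adult females (up to 3 days) of the lines iso1a, Rev and IR6. Of these, iso1a was labelled as normalized, and Rev and IR6 were not. The labels give no genotype beyond the line name. With 1 library per group there is no test. Differences are read against a fixed fold, and the intervals given (95%, exact) cover counting error alone.

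Oxidative phosphorylation moves electrons from NADH (complex I) and succinate (complex II) through ubiquinol, complex III and cytochrome c to oxygen at complex IV, and the proton gradient this builds drives ATP synthase, complex V. Most subunits are nuclear genes with a product imported into mitochondria, while a few are encoded by mitochondrial DNA and are not members here. In flies the flight muscle is packed with mitochondria, the germline passes its mitochondria to the egg, and many of these subunits have a copy that is expressed in the testis.

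Gene counts totalled 109980 and 2813522 in the Iso1a-454 and Solexa ovary libraries, and 4379746, 11685814 and 9633168 in the iso1a, Rev and IR6 bodies. A gene with 3 counts stood at 27.3 counts per 1000000 gene counts (CPM) in the Iso1a-454 library, and at 0.257 to 1.07 CPM in the other 4. Of 25 testis and sperm markers, 22 were at 0 in each ovary library. Of all 13265 genes, 5084 had any count in the Iso1a-454 library and 5804 in the Solexa library. Summed testis markers came to 2650 CPM in the iso1a body, against 1210 CPM in Rev and 1330 CPM in IR6. Summed yolk protein genes came to 655 CPM in the iso1a body, against 62200 CPM in Rev and 62000 CPM in IR6. Summed ovary markers came to 2360 CPM in the iso1a body, against 21600 CPM in Rev and 21000 CPM in IR6. Yet 4 of 15 ovary markers were at least 2-fold higher in iso1a than in both Rev and IR6, and 8 were lower. Summed muscle genes lay between 18200 and 20500 CPM in all 3 bodies, though 6 of 18 were higher in iso1a and 2 lower. Of all genes tested, 35.2% were higher and 19.3% lower.

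The core genes held 3.19% of gene counts in the ovary Iso1a-454 library and 4.71% in the ovary Solexa library. They held 1.16% in the iso1a body, against 2.97% in Rev and 3.17% in IR6. The complexes contributed unequally. Complex V took 20.1% of core counts in the Iso1a-454 library, 11.4% in the Solexa library and 28.8% in the iso1a body, against 60.1% in Rev and 54.3% in IR6. ATPsynbeta, the catalytic subunit of ATP synthase, was the gene behind much of the Rev and IR6 share, with 36.7% of core counts in Rev and 31.6% in IR6. With ATPsynbeta set aside, complex V still differed in the same order, with 10.8% of the remaining core counts in the ovary Solexa library and 22.0% in the iso1a body, against 36.9% in Rev and 33.2% in IR6. Complex I and complex IV led in the ovary, with 32.9% and 38.7% of core counts in the Iso1a-454 library and 43.9% and 30.6% in the Solexa library.

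**Figure D1:**
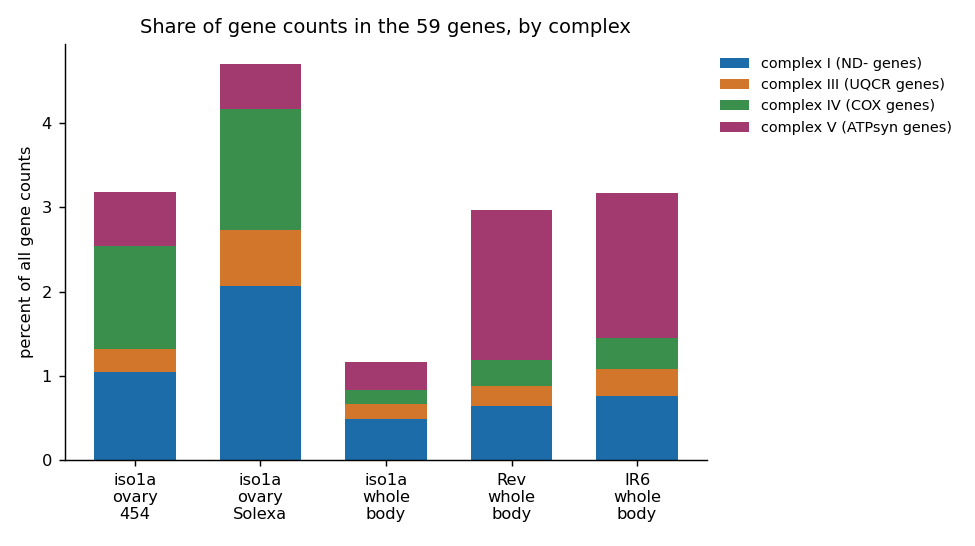
Stacked bars give the percent of all gene counts in each library that fell in the 59 core genes, split by complex. The bars reach 3.19%, 4.71%, 1.16%, 2.97% and 3.17% from left to right, and complex V is the widest band in Rev and IR6 only.

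**Figure D2:**
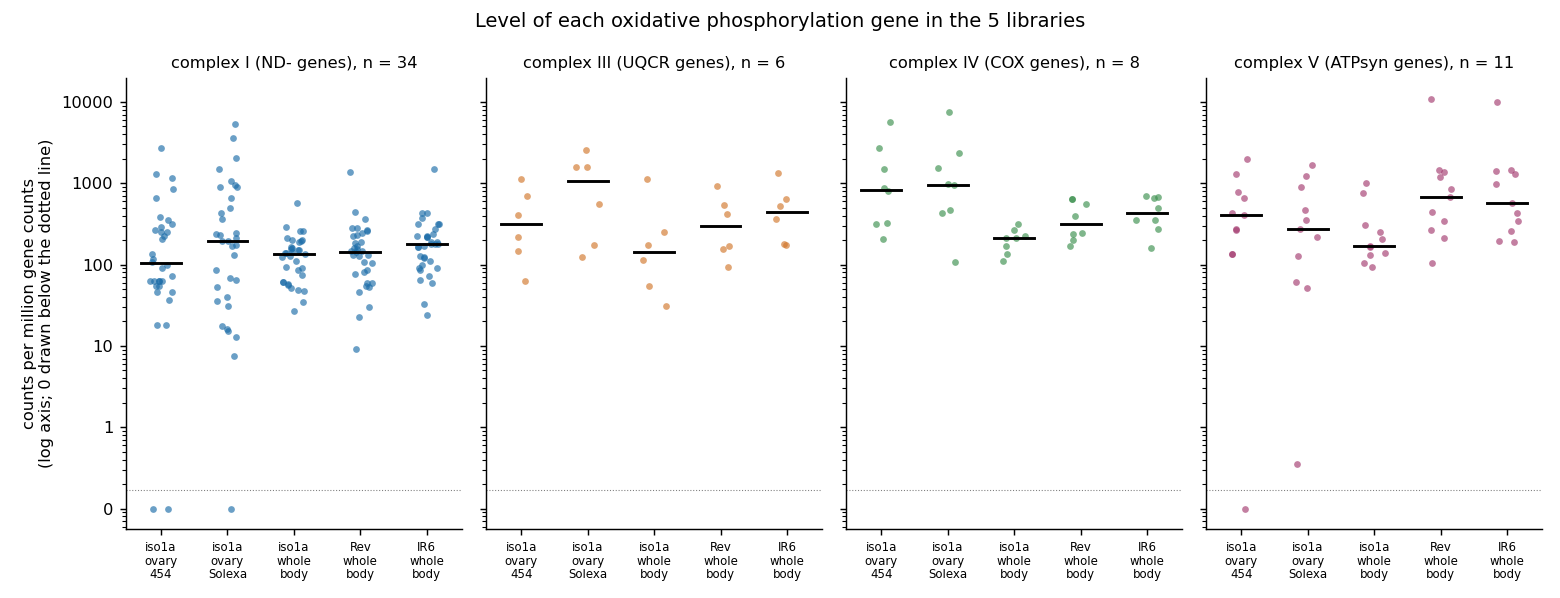
Each point is 1 core gene, with its level in CPM on a log axis and a panel per complex. Black lines are medians, and genes with no count are drawn below the dotted line, where ND-B8 lies in both ovary libraries.

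Between quartiles, the levels of the core genes were spread more widely in the ovary libraries than in whole bodies. The upper quartile stood 10.4-fold above the lower quartile in the Iso1a-454 library and 12.4-fold in the Solexa library. In bodies the same ratio was 2.24 in iso1a, against 3.47 for Rev and 2.61 for IR6. The whole range ran from 26.9 to 1140 CPM in the iso1a body, against 9.24 to 10900 CPM in Rev and 24.1 to 10000 CPM in IR6. Ovary libraries count 5′ ends and body libraries count along the transcript, and the Iso1a-454 library is shallow. The part of assay and depth in the spread was not tested. The spread over all genes is not given here, so this cannot be called a trait of core genes.

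Per kilobase of transcript, complex V stood highest in Rev and IR6. Its median was 233 CPM per kb in the iso1a body, against 757 in Rev and 733 in IR6. For complex I the medians were 150 CPM per kb in the iso1a body, against 162 in Rev and 174 in IR6. Within complex V, ATPsynbeta had 498 CPM per kb in the iso1a body, against 5380 in Rev and 4950 in IR6. ATPsyndelta, a central stalk subunit, was the lowest of the complex on this scale, with 24.8 CPM per kb in the iso1a body, against 89.0 in Rev and 90.7 in IR6. Its canonical transcript of 3817 bases is the longest of the core genes. In CPM it was the lowest of complex V in the iso1a body, but not in Rev or IR6. In complex I the highest gene per kb was ND-MLRQ, a small subunit, in the iso1a body (1070), and ND-39, an accessory subunit, in Rev (857) and in IR6 (923). In complex III it was UQCR-11, a small subunit, in the iso1a body (2250), UQCR-Q, a small ubiquinone-binding subunit, in Rev (569) and UQCR-C2, a core protein of the complex, in IR6 (790).

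Rev over IR6 whole body sets side by side the bodies that share the assay and every label except the line. No core gene was at least 2-fold higher in Rev, and 3 of 59 (5.08%) were at least 2-fold lower: ND-B8, UQCR-11 and ND-B12. Among all 10300 genes tested, 4.34% were at least 2-fold higher and 3.47% at least 2-fold lower. Most core genes nevertheless leaned the same way, with 50 of 59 log2 ratios below 0, beside 4176 of 10300 for all genes. The median was -0.28 for core genes and 0.10 for all genes.

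ND-B8, a small accessory subunit of complex I, had 108 counts in Rev against 232 in IR6, giving a log2 ratio of -1.38 (interval -1.72 to -1.05). UQCR-11 had 1963 counts in Rev against 3485 in IR6, giving a ratio of -1.11 (-1.19 to -1.03). ND-B12, another accessory subunit, had 1509 counts in Rev against 2671 in IR6, giving a ratio of -1.10 (-1.19 to -1.01). All 3 intervals lay beyond 2-fold, and the exons of ND-B8 and ND-B12 overlap another gene, from which these unstranded counts cannot be told apart.

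At the other end stood a peripheral stalk subunit of ATP synthase. ATPsynD had 10063 counts in Rev against 4177 in IR6, giving a log2 ratio of 0.99 (0.94 to 1.04). ND-B14.7, a membrane-arm subunit of complex I, had 2720 counts in Rev against 1168 in IR6, giving a ratio of 0.94 (0.84 to 1.04). ATPsynCF6, also of the peripheral stalk, had 3133 counts in Rev against 1827 in IR6, giving a ratio of 0.50 (0.42 to 0.58). The first pair reached 2-fold within counting error without passing it, in the direction opposite to most core genes.

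Median log2 ratios were -0.30 for complex I, -0.43 for complex III, -0.32 for complex IV and -0.08 for complex V. The most abundant gene of each complex did not pass 2-fold. ATPsynbeta had 127418 counts in Rev against 96522 in IR6, giving a log2 ratio of 0.12 (0.11 to 0.13), while ND-39 had 16127 in Rev against 14326 in IR6, giving a ratio of -0.11 (-0.14 to -0.08). UQCR-C2, a core protein of complex III, had 10715 counts in Rev against 12823 in IR6, giving a ratio of -0.54 (-0.57 to -0.50). COX4, a subunit of cytochrome c oxidase, had 7521 counts in Rev against 6768 in IR6, giving a ratio of -0.13 (-0.17 to -0.08).

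Transcript length moved with this ratio. Of the core genes 43 have a canonical transcript under 1000 bases, and the core median of 768 bases compares with 1798 bases for all genes. Spearman's rho between length and the Rev over IR6 ratio was 0.49 over the 59 core genes and 0.33 over 10216 genes, which share the same 2 libraries. For transcripts under 1000 bases the median ratio was -0.44 for core genes and -0.21 for all genes. The part of length in the result was not tested. With factors from TMM or median ratios, 6 core genes (10.2%) rather than 3 were at least 2-fold lower, beside 4.04% (TMM) and 4.11% (median ratios) of all genes.

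**Figure D3:**
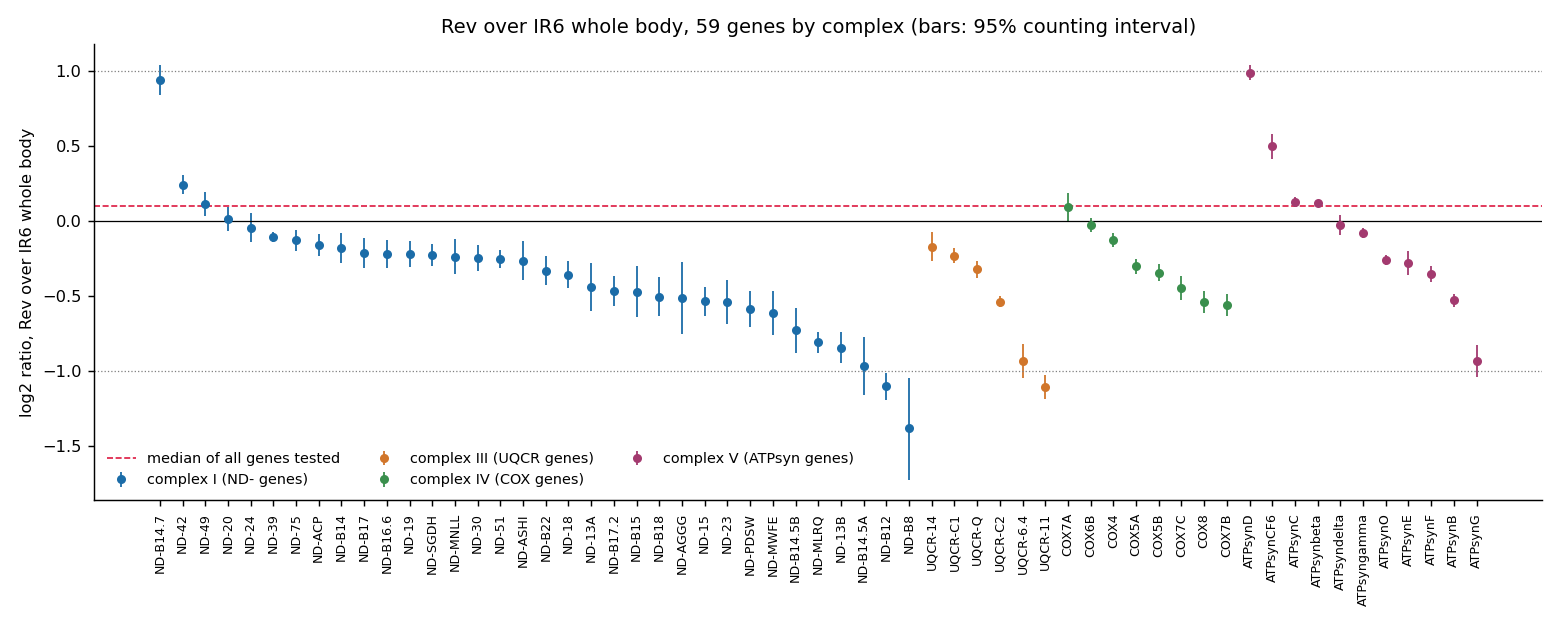
Points are log2 ratios of Rev over IR6 whole body for the 59 core genes, grouped by complex and sorted, with 95% counting intervals. Dotted lines mark 2-fold and the dashed line the median of all genes. ATPsynD (0.99) and ND-B14.7 (0.94) stand apart at the top, and ND-B8 (-1.38) at the bottom.

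iso1a over Rev and IR6 whole body compares lines and, at the same time, a library labelled as normalized with 2 that were not. The line and the normalization cannot be told apart. Both ratios had to pass 2-fold in the same direction, and the size given is the ratio closer to 0. In iso1a 6 of 59 core genes (10.2%) were higher and 23 (39.0%) were lower. Of all 10316 genes tested 35.2% were higher and 19.3% lower. That background depends on level. Among genes with at least 100 CPM in both Rev and IR6, 10.4% were higher and 40.9% lower, and among the rest 40.0% were higher and 15.1% lower. Of the 47 core genes in the abundant class 23 were lower and 1 was higher, which is 48.9% lower beside 40.9% for all genes of that class. Counts are given as deposited, and ratios allow for the smaller total of the iso1a library.

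Complex I had 5 genes higher (14.7%) and 10 lower (29.4%) of 34, beside 35.2% and 19.3% of all genes. ND-39 had 207 counts in iso1a, against 16127 for Rev and 14326 for IR6, log2 ratios of -4.86 (interval -5.07 to -4.67) and -4.97 (-5.18 to -4.78). ND-42, an accessory subunit, had 325 counts in iso1a, against 5116 for Rev and 3566 for IR6, with -2.32 as the smaller ratio. ND-51, the flavoprotein that takes electrons from NADH, had 655 counts in iso1a, against 4221 for Rev and 4149 for IR6, with -1.27 as the smaller ratio. These 3 were named because they have the highest CPM of complex I in Rev and IR6, a choice that itself favours lower ratios. Among all genes with at least 100 CPM in both, 40.9% were lower.

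The 5 higher genes of complex I were ND-AGGG, ND-B8, ND-13A, ND-B15 and ND-MWFE. ND-AGGG, a small membrane-arm subunit, had 922 counts in iso1a, against 267 for Rev and 314 for IR6, with 2.69 as the smaller log2 ratio. ND-B8 had 603 counts in iso1a, against 108 for Rev and 232 for IR6, with 2.51 as the smaller ratio. All 5 come from transcripts under 1000 bases. The exons of ND-B8, ND-13A, ND-B15 and ND-MWFE overlap another gene, from which these unstranded counts cannot be told apart. No such overlap is listed for ND-AGGG.

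Complex III had 1 gene higher and 3 lower of 6. UQCR-C2 had 135 counts in iso1a, against 10715 for Rev and 12823 for IR6, log2 ratios of -4.89 (-5.15 to -4.65) and -5.43 (-5.69 to -5.19). UQCR-C1, the other core protein, had 236 counts in iso1a, against 6388 for Rev and 6183 for IR6, with -3.34 as the smaller ratio. UQCR-11 went the other way, with 4984 counts in iso1a, against 1963 for Rev and 3485 for IR6, and 1.65 as the smaller ratio. The core proteins and UQCR-11 of the same complex thus moved in opposite directions, and the exons of UQCR-C2 overlap Syx8. UQCR-Q had 766 counts in iso1a, against 4956 for Rev and 5102 for IR6, with -1.28 as the smaller ratio.

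In complex IV 3 of 8 genes (37.5%) were lower and none was higher. All 8 stood above 100 CPM in Rev and IR6, and among all genes at that level 40.9% were lower and 10.4% higher. COX4 had 479 counts in iso1a, against 7521 for Rev and 6768 for IR6, with -2.56 as the smaller log2 ratio. COX5A had 596 counts in iso1a, against 6506 for Rev and 6608 for IR6, with -2.03, and COX6B had 924 in iso1a, against 7469 for Rev and 6270 for IR6, with -1.60. COX7A, a small subunit, did not pass, with 919 counts in iso1a, against 1999 for Rev and 1548 for IR6, and 0.30 as the smaller ratio.

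Complex V had 7 of 11 genes lower (63.6%), none higher and a median of -1.84. All 11 stood above 100 CPM in Rev and IR6. Among all genes at that level 40.9% were lower and 10.4% higher, with a median of -0.62. ATPsynbeta had 4415 counts in iso1a, against 127418 for Rev and 96522 for IR6, with -3.31 as the smaller log2 ratio. ATPsyngamma, the central shaft, had 582 counts in iso1a, against 16136 for Rev and 14050 for IR6, with -3.38 as the smaller ratio. ATPsynC, the subunit of the rotor ring, did not pass, with 3340 counts in iso1a, against 16826 for Rev and 12676 for IR6, and -0.79 as the smaller ratio. Of the peripheral stalk, ATPsynO (smaller ratio -2.80), ATPsynB (-2.05) and ATPsynD were lower. ATPsynD had 457 counts in iso1a, against 10063 for Rev and 4177 for IR6, with -2.05 as the smaller ratio. The ratios of ATPsynCF6, of the same stalk, had opposite signs, with 914 counts in iso1a, against 3133 for Rev and 1827 for IR6.

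Length moved with this comparison too. Under 1000 bases 6 of 43 core genes were higher and 12 lower, where 59.8% of all such genes were higher and 10.3% lower. From 1000 to under 2000 bases none of 13 was higher and 8 were lower, where 21.4% of all genes were higher and 27.3% lower. At 2000 bases or more all 3 were lower, where 35.2% of all genes were higher and 16.9% lower. Over the 59 core genes Spearman's rho of length with the ratio was -0.58 against Rev and -0.52 against IR6, beside -0.13 and -0.06 over 10233 genes. The part of length, level and normalization in these differences was not tested. Against Rev alone 11 core genes (18.6%) were higher, beside 37.6% of all genes, and TMM factors gave 3 higher and 24 lower, where all genes split into 25.4% higher and 27.8% lower.

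**Figure D4:**
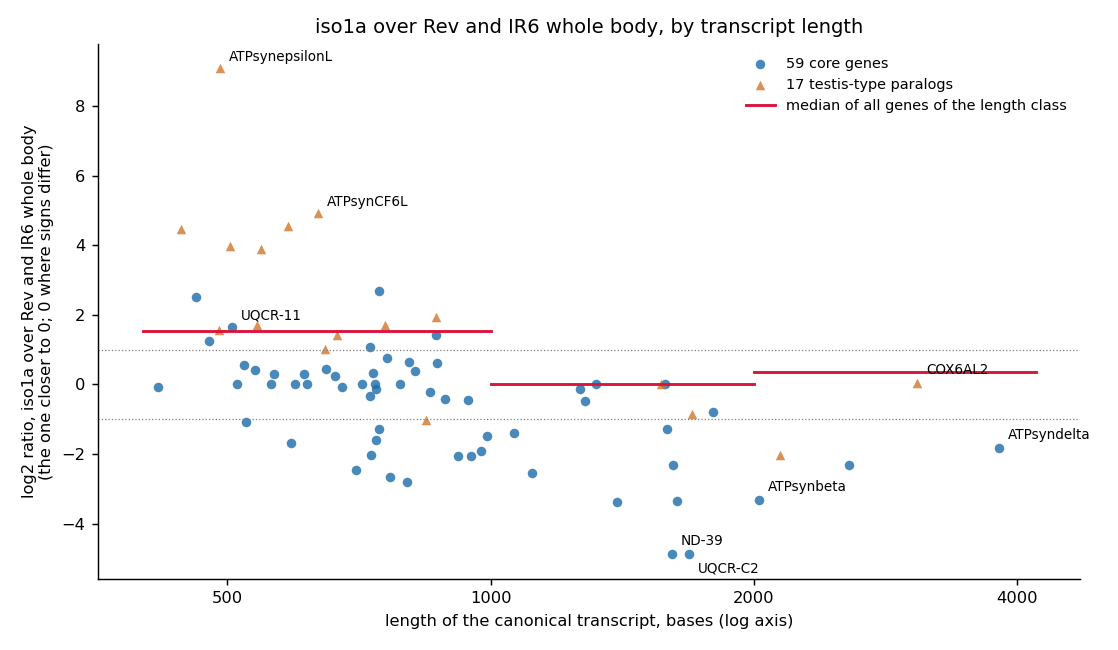
The log2 ratio of iso1a over Rev and IR6 (the one closer to 0) is drawn against transcript length in bases, on a log axis, for 59 core genes (circles) and 17 testis-type paralogs (triangles). Red lines are medians of all genes in each length class. ATPsynepsilonL (9.08) tops the paralogs, and UQCR-C2 (-4.89) and ND-39 (-4.86) lie lowest.

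Most testis-type paralogs were higher in iso1a. Of 17 tested, 12 (70.6%) were higher and 2 (11.8%) were lower, with a median log2 ratio of 1.69. All 12 have transcripts under 1000 bases, where they were 12 of 13, and 59.8% of all genes that short were higher. All 17 stood under 100 CPM in Rev or IR6, a class where 40.0% of all genes were higher and 15.1% lower. The testis and sperm markers moved with them: 13 of 19 (68.4%) were higher and 3 (15.8%) were lower. Of all genes tested 35.2% were higher and 19.3% lower. The 3 lower markers were betaTub85D, Mst98Ca and Mst98Cb. In bulk bodies, more cells of a type and more RNA per cell cannot be told apart. The part of testis content, level, length and the normalization label in the result was not tested.

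ATPsynCF6L, the testis-type copy of the peripheral stalk subunit, had 322 counts in the iso1a body, against 16 in Rev and 23 in IR6, with 4.92 (4.33 to 5.62) as the smaller log2 ratio. COX7AL had 798 counts in iso1a, against 61 for Rev and 75 for IR6, with 4.54 as the smaller ratio. UQCR-11L had 293 counts in iso1a, against 13 for Rev and 29 for IR6, with 4.45. The copies UQCR-14L and ATPsynGL of complexes III and V were close behind: UQCR-14L had 265 counts in iso1a, against 16 for Rev and 37 for IR6 (3.96), and ATPsynGL had 132 in iso1a, against 17 for Rev and 19 for IR6 (3.90).

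Apart from COX7AL, the copies of complex IV subunits had smaller ratios. COX7AL2 had 955 counts in iso1a, against 326 for Rev and 547 for IR6, with 1.94 as the smaller log2 ratio. COX6AL, COX6CL and COX4L had 162, 265 and 201 counts in iso1a, against 87, 128 and 129 in Rev and 110, 199 and 166 in IR6, with smaller ratios of 1.69, 1.55 and 1.41. COX5BL stood at the threshold, with 62 counts in iso1a, against 61 for Rev and 68 for IR6, and a smaller ratio of 1.00 (0.48 to 1.52). COX6AL2, of a longer transcript with exons that overlap Ir75d and Prp6, did not pass, with 125 counts in iso1a, against 266 for Rev and 271 for IR6, and 0.02 as the smaller ratio.

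Of the complex I copies 1 was higher, ND-B14.5AL, with 81 counts in iso1a, against 64 for Rev and 54 for IR6 (1.72). ND-51L1, with 5 counts in iso1a, against 60 for Rev and 56 for IR6, was lower (-2.04), as was ND-24L, with 15 in iso1a, against 105 for Rev and 69 for IR6 (-1.03). ND-49L (9 in iso1a, against 45 for Rev and 42 for IR6) and ND-51L2 (16 in iso1a, against 37 for Rev and 39 for IR6) did not pass, and neither ND-20L (9 in iso1a, against 13 for Rev and 23 for IR6) nor ATPsynbetaL (6 in iso1a, against 13 for Rev and 31 for IR6) reached the minimum of 50 counts in each pair.

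Set beside the subunit it copies, a paralog had a median of 19.9% of its partner's counts in the iso1a body, against 1.42% in Rev and 1.82% in IR6. The share moves with the partner's count as well as the paralog's. Abundant genes were more often lower and the rest more often higher in the iso1a body, the library labelled as normalized. The part of normalization in these shares was not tested. In iso1a the share ran from 0.136% for ATPsynbetaL to 104% for COX7AL2, which had 955 counts beside 919 for COX7A. The closest copies of Rev and IR6 were ND-B14.5AL, at 18% of ND-B14.5A in Rev, and COX7AL2, at 35.3% of COX7A in IR6. How reads shared by a gene and its copy were counted is not stated by the labels, so values of near-identical pairs are uncertain.

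Between Rev and IR6, 13 paralogs were tested and 2 (15.4%) were at least 2-fold lower in Rev, none higher. Of all genes tested, 3.47% were lower and 4.34% higher. Both lower paralogs were among the 9 tested under 1000 bases, where 9.96% of all genes were lower. UQCR-14L had 16 counts in Rev against 37 in IR6, giving a log2 ratio of -1.46 (-2.43 to -0.61), and COX7AL2 had 326 in Rev against 547 in IR6, giving a ratio of -1.02 (-1.23 to -0.82). Both intervals reached below 2-fold. The only paralog above 0 was ND-24L, at 0.32 (-0.12 to 0.79).

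ATPsynepsilonL, a copy of the central stalk subunit encoded by stunted (sun), had counts in the ovary, where the other copies had almost none. It had 6 counts in the ovary Iso1a-454 library, 1602 in the ovary Solexa library and 861 in the iso1a body, against 1 in Rev and 3 in IR6. In the iso1a body this was a log2 ratio of 10.58 over Rev (interval 8.68 to 16.47) and 9.08 over IR6 (7.75 to 11.58). All 3 libraries of the iso1a line held it, and both other lines were at the level of a few counts. A search made after these values were seen asked for at most 3 counts in each of Rev and IR6 and at least 500 in the iso1a body. These bounds were set around the counts of ATPsynepsilonL, so the search had to return that gene. It returned only 1 gene, which depends on the bounds and is no support. No exon of another gene overlaps ATPsynepsilonL in the current annotation. The other 18 listed paralogs had no count in the ovary Solexa library, where 5804 of all 13265 genes had any. Between them they had 1 count in the Iso1a-454 library, for COX7AL. Its partner sun had 78 counts in the Iso1a-454 library, 6532 in the Solexa library and 1276 in the iso1a body, against 312 in Rev and 853 in IR6.

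**Figure D5:**
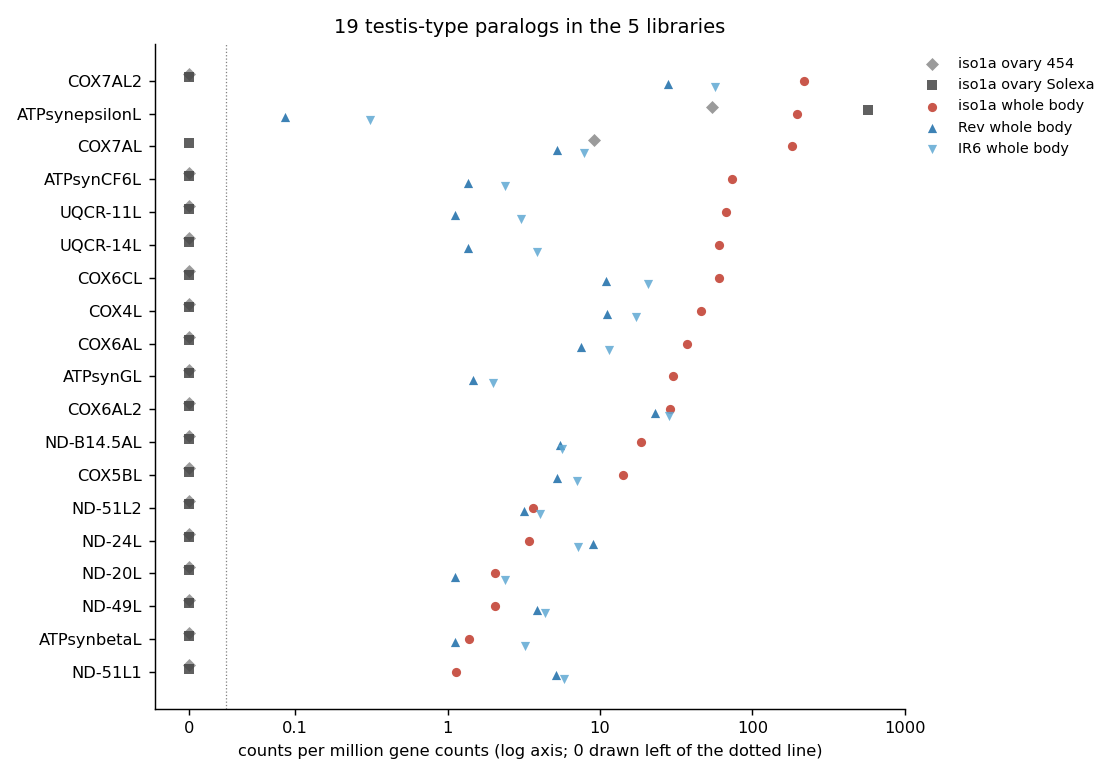
Each row is a listed testis-type paralog, with its level in CPM in the 5 libraries on a log axis. Marks left of the dotted line are 0. In 18 of 19 rows the ovary Solexa mark is at 0, and ATPsynepsilonL is the exception, at 569 CPM in the ovary Solexa library and 197 CPM in the iso1a body.

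Ovary Solexa over Rev and IR6 bodies differs in tissue, line and assay at once, so differences were called at 4-fold in both ratios, and tissue, line and assay cannot be told apart. Of 59 core genes 15 (25.4%) were higher and 16 (27.1%) lower in the ovary library. Of 9113 genes tested 5.28% were higher and 57.9% lower. Among all genes under 1000 bases, as 43 of the core genes are, 21.5% were higher and 40.9% lower. The median log2 ratio was 0.32 for core genes and -2.89 for all genes, while 17 of 18 muscle genes were at least 4-fold lower. With scaling to library totals, the core genes were split among themselves in similar numbers against Rev and IR6. With TMM factors, which raise the median of all genes by 0.97, 24 core genes were higher and 8 lower, where 9.66% of all genes were higher and 49.3% lower.

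The widest ratios above 0 among the core genes were those of ND-AGGG and COX7A. ND-AGGG had 15262 counts in the ovary Solexa library, against 267 in Rev and 314 in IR6, with 7.38 (7.22 to 7.54) as the smaller log2 ratio. COX7A had 21325 counts in the ovary library, against 1999 in Rev and 1548 in IR6, with 5.47 as the smaller ratio. The iron-sulfur subunits of complex I lay on both sides. ND-23 had 3028 counts in the ovary library, against 689 in Rev and 826 in IR6, with 3.65 as the smaller ratio. With the Iso1a-454 library in place of Solexa, where ND-23 had only 4 counts, its ratio turned to -0.53. ND-75, ND-51 and ND-20 were lower, at -5.22, -4.55 and -2.05, and ND-24 did not pass, at 0.07. COX7A alone held 17.6% of core counts in the Iso1a-454 library and 16.1% in the Solexa library.

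Among complex III genes, UQCR-Q had 7262 counts in the ovary library, against 4956 in Rev and 5102 in IR6, with 2.28 as the smaller log2 ratio. UQCR-C2 had 495 counts in the ovary library, against 10715 in Rev and 12823 in IR6, with -2.38, and UQCR-C1 had 348, against 6388 in Rev and 6183 in IR6, with -2.14. UQCR-Q and the core proteins of complex III were thus on opposite sides of the bodies. Against the iso1a body in place of Rev and IR6, 33.9% of core genes were at least 4-fold higher and 8.47% lower. Of all genes 5.08% were higher and 61.4% lower. Among the genes named by rule, UQCR-C2, UQCR-C1 and ATPsyngamma changed sign, to 2.51, 1.20 and 0.71. Core genes outside that list, such as ATPsynD and ATPsynO, changed sign too. ATPsynO had 903 CPM in the ovary Solexa library and 170 in the iso1a body, against 1187 in Rev and 1424 in IR6.

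The members lowest in the ovary Solexa library included a stalk subunit with almost no count there. ATPsynB had 1 count in the ovary Solexa library, against 8040 in Rev and 9558 in IR6, for a log2 ratio of -10.33 over Rev (-16.22 to -8.44). In CPM it stood at 0.355 in the Solexa library but at 136 in the Iso1a-454 library (15 counts), against 688 in Rev and 992 in IR6. The ovary libraries thus disagreed on its level. ND-39 had 50 counts in the ovary Solexa library, against 16127 in Rev and 14326 in IR6, with -6.26 as the smaller ratio. ATPsynbeta had 986 counts in the ovary library, against 127418 in Rev and 96522 in IR6, with -4.84. ND-B8 had no count in either ovary library, against 108 in Rev and 232 in IR6. With 3 counts in place of 0 in the Solexa library, it was at least 8.67-fold lower than in Rev and at least 22.6-fold lower than in IR6.

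Apart from ATPsynepsilonL, which was higher, every listed testis-type paralog had 0 counts in the ovary Solexa library. The 10 of these that reached the minimum did so through their counts in Rev and IR6 and were bound to be called lower, so their number is no result. With 3 counts in place of 0, COX7AL2 was at least 26.2-fold lower than in Rev and 53.3-fold lower than in IR6. COX6AL2 was at least 21.3-fold lower than in Rev and 26.4-fold lower than in IR6. Of the 25 testis and sperm markers, 22 were at 0 in the ovary Solexa library and 0 were at 0 in Rev or IR6. Of all 13265 genes, 5804 had any count in the ovary Solexa library, against 12817 in Rev and 12717 in IR6.

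Here too longer transcripts went with lower ratios. Spearman's rho of length with the log2 ratio was -0.51 against Rev and -0.48 against IR6 over the core genes, beside -0.29 and -0.25 over 9038 genes. All 15 higher core genes have transcripts under 1000 bases, where they were 15 of 43 (34.9%) and 5 (11.6%) were lower. Among all genes that short 21.5% were higher and 40.9% lower. From 1000 to under 2000 bases none of 13 core genes was higher and 8 were lower, where 3.33% of all genes were higher and 53.3% lower. The ovary libraries count 5′ ends, where length adds no counts, and the body libraries count along the transcript. The part of this difference in the result was not tested.

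Ovary Iso1a-454 over ovary Solexa compares the platform, the depth and the normalization label within ovaries of the same line, and these cannot be told apart. Of 53 core genes tested 9 (17%) were at least 2-fold higher in the Iso1a-454 library and 19 (35.8%) lower. Of 3366 genes tested 14.9% were higher and 40.5% lower. The median log2 ratio was -0.53 for core genes and -0.67 for all genes. With 5 added to counts the split of all genes turned, to 35.7% higher and 12.4% lower, beside 24.5% and 28.3% of core genes. With no minimum count, 37.6% of all genes were higher and 25.7% lower, beside 20.7% and 32.8% of core genes.

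ND-B22, an accessory subunit of complex I, had 73 counts in the Iso1a-454 library and 241 in the Solexa library, a log2 ratio of 2.96 (2.56 to 3.34). COX5A had 297 counts in Iso1a-454 and 1220 in Solexa, a ratio of 2.64 (2.45 to 2.82), and ATPsynbeta had 221 in Iso1a-454 and 986 in Solexa, a ratio of 2.52 (2.30 to 2.73). In the other direction ND-23 had 4 counts in Iso1a-454 and 3028 in Solexa, a ratio of -4.72 (-6.76 to -3.53). ND-AGGG had 42 counts in Iso1a-454 and 15262 in Solexa, a ratio of -3.81 (-4.30 to -3.39). ND-B14, an accessory subunit, had 7 counts in Iso1a-454 and 2540 in Solexa, a ratio of -3.73 (-5.14 to -2.78).

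This bears on the ovary results above. With the Iso1a-454 library in place of Solexa against Rev and IR6, ND-23 and ND-B14 changed sign, to -0.53 and -1.10. They had only 4 and 7 counts in the Iso1a-454 library, and no interval was computed for these ratios. In the same comparison 9 core genes (15.3%) were higher and 10 (16.9%) lower at 4-fold, beside 3.41% and 33.3% of all genes. COX7A kept a high level in both ovary libraries, with 5600 CPM in Iso1a-454 and 7580 CPM in Solexa. Complex V had 5 genes higher, 3 lower and a median log2 ratio of 0.99 in the Iso1a-454 library over Solexa, beside -0.81 for complex I, -1.18 for complex III and -0.48 for complex IV.

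Other genes of the pathway were read by the same rules. In Rev over IR6, 1 of 3 further ATP synthase genes was at least 2-fold lower: sun had 312 counts in Rev against 853 in IR6, giving a log2 ratio of -1.73. bellwether (blw), the alpha subunit that pairs with ATPsynbeta, had 17703 counts in Rev against 14742 in IR6, giving a ratio of -0.01. Among 5 tested genes of complex II the copy SdhAL was lower, with 29 counts in Rev against 50 in IR6 (-1.05). Neither of the cytochrome c genes, neither complex IV gene outside the rule and none of 4 such complex III genes passed.

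In iso1a over Rev and IR6, blw was lower, with 2371 counts in iso1a, against 17703 for Rev and 14742 for IR6 (-1.48), as ATPsynbeta was. Of 6 complex II genes, which feed electrons from succinate, SdhB, SdhC and SdhD were lower, and the copy SdhBL was higher with 253 counts in iso1a, against 15 for Rev and 15 for IR6 (5.17). RFeSP, the Rieske iron-sulfur protein of complex III, was lower, with 211 counts in iso1a, against 10537 for Rev and 10516 for IR6 (-4.22), while ox, a small subunit of the same complex, was higher, with 765 counts in iso1a, against 536 for Rev and 519 for IR6 (1.70). Cyt-c-p, the main cytochrome c, was higher, with 4454 counts in iso1a, against 1126 for Rev and 1588 for IR6 (2.62).

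In the ovary Solexa library over Rev and IR6, Cyt-c-p was higher, with 10531 counts in the ovary library, against 1126 in Rev and 1588 in IR6 (4.50). levy, a subunit of complex IV, was higher, with 13756 counts in the ovary library, against 2423 in Rev and 3246 in IR6 (3.86). sun was higher, with 6532 counts in the ovary library, against 312 in Rev and 853 in IR6 (4.71), and blw was lower, with 301 counts in the ovary library, against 17703 in Rev and 14742 in IR6 (-3.82). The ADP/ATP carriers had ratios of opposite sign: Ant2 had 2165 counts in the ovary library, against 1137 in Rev and 835 in IR6 (2.98), and sesB had 2213 in the ovary library, against 47195 in Rev and 35194 in IR6 (-2.22).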

How the data were processed

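Per the labels' protocols, polyA RNA came from 20 ovaries (5 µg of total RNA) or from whole bodies, and Bowtie was the aligner per the submitters' processing notes. Its version and the genome build are not given in the sources used here. All deposited values used are counts of reads per transcript, made by the authors and not scaled. A gene's value was the largest count among its transcripts, and a gene not listed in a library was taken as 0. Rows without a gene name held at most 681 counts a library and were left out.

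Of the 13265 genes, a locus tag gave the current symbol of 12473 and a synonym that of 548, while 244 had none. Lengths and overlaps came from canonical transcripts of the annotation BDGP6, and 13019 genes had a length. The planned description of promoter motifs was not run, since no sequence was used here.

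To each count 0.5 was added before scaling to the gene total of its library, and log2 ratios were given with exact conditional 95% intervals (Clopper-Pearson). At least 50 counts were needed in each pair. Calls were at 2-fold, or 4-fold for ovary against body, and where a library was set against 2 others the ratio closer to 0 was taken, or 0 where the signs differed. The calculation was tested on simulated data. Genes were named by rule: the 3 highest of each complex in Rev and IR6, the 3 largest and 3 smallest ratios of each comparison, all testis-type paralogs, and the genes behind small counts. Members and lists were chosen with earlier results of these data known. In R 4.3.3, edgeR 4.0.16 gave TMM factors and DESeq2 1.42.0 gave median-ratio factors. Python 3.11.15 was used for the rest, with numpy 2.4.6, pandas 2.3.3, scipy 1.17.1 and matplotlib 3.10.9.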

Additional observations from a re-analysis of the deposited data

How the results depend on the processing

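No paired analysis was possible because each group is 1 library and no replicate numbers are shared. With TMM or median-ratio factors, 6 core genes were lower in Rev than in IR6 under either, 3 were higher in iso1a under either, and in the ovary Solexa library 24 were higher and 8 lower under either, with a core median of 1.42 under median ratios. TMM shifted the median of all genes by -0.28 for iso1a and 0.97 for the ovary. At 1.5-fold, Rev over IR6 had 2 core genes higher (3.39%, beside 13.7% of all genes) and 11 lower (18.6%, beside 9.33%), and Iso1a-454 over Solexa had 14 higher (26.4%, beside 22.0%). The lower paralogs of iso1a numbered 0 with a minimum of 200 counts, 1 with 5 added to counts and 1 with only symbols ending in L set apart. The remaining settings were chosen after seeing the data. Without the 30 core genes whose exons overlap another gene, which leaves fewer genes, Rev over IR6 had 1 lower, iso1a had 2 higher and 11 lower, the ovary Solexa library had 7 higher and 8 lower, and Iso1a-454 over Solexa had 4 higher and 8 lower. Without IR6, 11 core genes were higher in iso1a, beside 37.6% of all genes. In the ovary against bodies, the Iso1a-454 library gave 9 higher and 10 lower. On few counts there, ND-23 (4 counts) was at -0.53, ND-B14 (7 counts) at -1.10 and COX7AL (1 count) at 0.80. With the iso1a body as the comparison, 33.9% of core genes were higher and 5 (8.47%) lower, beside 5.08% and 61.4% of all genes. Of the genes named by rule, ATPsyngamma was then at 0.71, UQCR-C1 at 1.20 and UQCR-C2 at 2.51. With at least 20 counts expected in Iso1a-454, 5 core genes were higher in it. Where no reason is given, the cause was not tested. The other 150 of 177 alternative values for the counts and medians of core genes and of paralogs in iso1a kept within 1.5-fold or, for medians, within the width of the 95% order-statistic interval of the core median. Depth limits the Iso1a-454 library most, where many members have under 50 counts.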

Other observations

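The tricarboxylic acid cycle, which supplies NADH to complex I, had no gene of 12 past 2-fold between Rev and IR6. In the ovary Solexa library 10 of its 12 genes were at least 4-fold lower than in Rev and IR6 and none was higher, beside 57.9% and 5.28% of all genes. Idh3a, a subunit of isocitrate dehydrogenase, had 26 counts in the ovary library, against 13292 in Rev and 11968 in IR6. Mdh2, the mitochondrial malate dehydrogenase, had 3629 counts in the ovary library, against 6043 in Rev and 3281 in IR6, with 1.32 as the smaller log2 ratio. In the iso1a body 2 of the 12 were higher and 3 lower than in Rev and IR6, beside 35.2% and 19.3% of all genes. Idh3a had 268 counts in iso1a, against 13292 for Rev and 11968 for IR6 (-4.21), and Ogdh, of oxoglutarate dehydrogenase, had 4218 in iso1a, against 3204 for Rev and 1691 for IR6 (1.81).

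Of 7 regulators of mitochondrial biogenesis tested, none passed 2-fold between Rev and IR6, and in the iso1a body 1 (14.3%) was higher, beside 35.2% of all genes, which was ewg, with 812 counts in iso1a, against 1040 for Rev and 706 for IR6 (1.06). Of the 7, 6 (85.7%) were at least 4-fold lower in the ovary Solexa library, beside 57.9% of all genes. Of 7 assembly factors 1 was higher and 3 were lower in the iso1a body, where 35.2% of all genes were higher and 19.3% lower. The higher gene was the copper chaperone Cox17, which serves complex IV assembly, with 346 counts in iso1a, against 90 for Rev and 93 for IR6 (3.03). The lower genes were Surf1 (-1.82), Cox11 (-1.31) and CIA30 (-1.28). In the ovary Solexa library Cox17 was higher, with 447 counts (4.03), and Surf1 and CIA30 were lower.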
